A study of Mus musculus with 15 samples.

Results

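Calorie restriction (CR) was compared with a control diet in the gastrocnemius, a calf muscle, of mice with and without Sirt3, and the response described here is the one averaged over both genotypes. For each gene the change under CR was taken in wildtype mice and in Sirt3 knockout mice, and the mean of the 2 differences was tested. All 15 of the 15 arrays in the series entered, each from 1 mouse. They hold 3 wildtype mice on the control diet and 4 under CR, and 4 knockout mice on each diet. The mice were male C57BL/6 and 12 months old when tissue was taken. How strong the restriction was, how long it lasted, at what hour and how long after feeding muscle was taken, and whether Sirt3 was deleted in the whole body were stated in no source used here. Values are log2 intensities processed with RMA, a method that corrects background, normalizes arrays by quantiles and combines probes into 1 value per probe set. Of 19938 genes with a probe set on the array, 12056 were bright enough to be tested. Of these, 129 passed a limma adjusted p of 0.05 in the averaged contrast, and 128 of them had the same sign in both genotypes.

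CR limits energy intake without malnutrition and extends lifespan in many mouse strains. In skeletal muscle it is known for a shift between carbohydrate and fat use, for lower insulin and growth factor signalling and for altered protein quality control. The gastrocnemius of the mouse consists mostly of fast, glycolytic fibres. Sirt3 encodes a mitochondrial NAD-dependent deacetylase that is linked to the metabolic response to fasting and CR. Setting the same diet contrast side by side in both genotypes shows which changes had 1 direction with and without it.

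The labels were checked on the Sirt3 probe set, which lay between 6.38 and 6.68 on the 7 wildtype arrays and between 4.94 and 6.19 on the 8 knockout arrays, without overlap. The averaged change of Sirt3 under CR was -0.17 (SE 0.18, limma adjusted p = 0.599). Transcripts of other tissues stood out on some arrays, relative to the median array. The mean log2 value of 24 male germ cell genes exceeded it by 3.76 in wildtype control replicate 3 and by 3.20 in knockout control replicate 1. The mean of 12 pancreatic acinar genes exceeded it by 7.21 in wildtype control replicate 2, and that of 16 liver genes by 2.61 in wildtype CR replicate 4, by 1.71 in knockout control replicate 2 and by 1.51 in wildtype control replicate 1. Both arrays with germ cell transcripts are control arrays, and germ cell genes had negative averaged changes under CR (median log2 change -1.36 over the 16 tested). This median was -0.66 without wildtype control replicate 3, -0.26 without both germ cell arrays and -0.06 without the 4 arrays defined next. Results are therefore also given with these 2 germ cell arrays omitted, and with all 4 arrays omitted whose germ cell, pancreatic or liver mean exceeded the median array by over 2 log2 units, which leaves wildtype control replicate 1 as the single wildtype control. In that fit its spread is assumed to equal that of the other groups.

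Under CR 78 genes were higher (0.647% of the genes tested) and 51 were lower (0.423%) at a limma adjusted p under 0.05, and 2428 had an unadjusted p under 0.05. With the arrays centred on their medians the split was 23 higher and 29 lower. The changes were small: 10 of the higher and 21 of the lower genes differed by over 0.5 on the log2 scale. Among the genes with the same sign in both genotypes, the 77 higher had a median change of 0.28 and the 51 lower a median of -0.46. The estimate was larger in wildtype mice for 57 of the 77 higher genes (medians 0.34 in wildtype and 0.23 in knockout mice), and larger in knockout mice for 34 of the 51 lower genes (medians -0.41 in wildtype and -0.44 in knockout mice). Of the 128 genes, 97 also had an unadjusted limma p under 0.05 within each genotype, 61 of them higher and 36 lower. The remainder passed mainly through 1 genotype, with 16 genes at an unadjusted p of 0.05 or more in wildtype and 15 in knockout mice. The 128 were chosen by the mean of the wildtype and knockout changes on the same arrays, which largely fixes these counts. Over all genes tested, 40.8% had positive and 25.5% negative changes in both genotypes, the shares against which the counts of gene lists are to be read. The exception in sign among the 129 was Mybph, a thick filament protein, at 1.35 in wildtype and -0.16 in knockout mice.

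**Figure D1:**
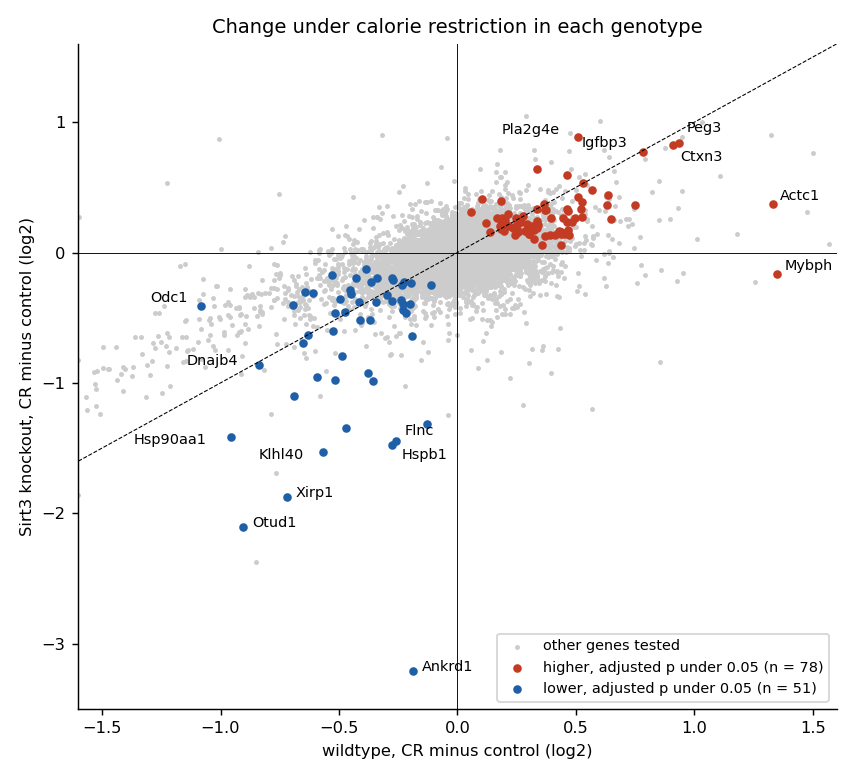
Change under CR (CR minus control, log2) of 12056 genes in wildtype mice (x axis) and Sirt3 knockout mice (y axis), with the 78 genes past the averaged threshold as higher in red and the 51 lower in blue, and a dashed line where both changes are equal; 34 genes lie outside the axes. Peg3, Ctxn3 and Igfbp3 lie close to the line, whereas Ankrd1 lies far below it, at -0.19 in wildtype and -3.21 in knockout mice.

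A different description, which needs no threshold on p, is that every CR array lay beyond every control array within wildtype and within knockout mice. This held in the higher direction for 105 genes (0.871% of the genes tested) and in the lower direction for 46 (0.382%). Of the genes past the threshold, 45 of the higher and 20 of the lower ones were separated in this way. After centring on the array medians, 51 genes were separated as higher and 52 as lower.

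The number of genes past the threshold depended on single arrays. Leaving out 1 array gave 54 higher and 38 lower genes without knockout CR replicate 1, and 57 and 34 without knockout control replicate 4. It gave 151 and 109 without wildtype control replicate 1 and 50 and 18 without wildtype control replicate 2. Without any 1 of the other 11 arrays it gave 13 to 34 higher and 9 to 28 lower genes. Past the threshold in all 15 of these fits were 20 genes: Actc1, Afap1l1, Ctnnbip1, Dhrs7c, Dnaja4, Dnajb4, Gstm2, Hspb1, Igfbp3, Khdrbs3, Mafa, Misp3, Mylpf, Odc1, Ppp1ca, Rbm3, Rcan1, Rpl10a, Slc35f5 and Slc39a10. For most of the genes described next as past the threshold, the number of these 15 fits that kept them past it is given. Without the 2 germ cell arrays 19 genes were higher and 26 lower, and 36 of these 45 belonged to the 129. With all 4 arrays omitted 2 were higher and 3 lower, and Actc1 and Ctnnbip1 were the members of the 129 among them.

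**Figure D2:**
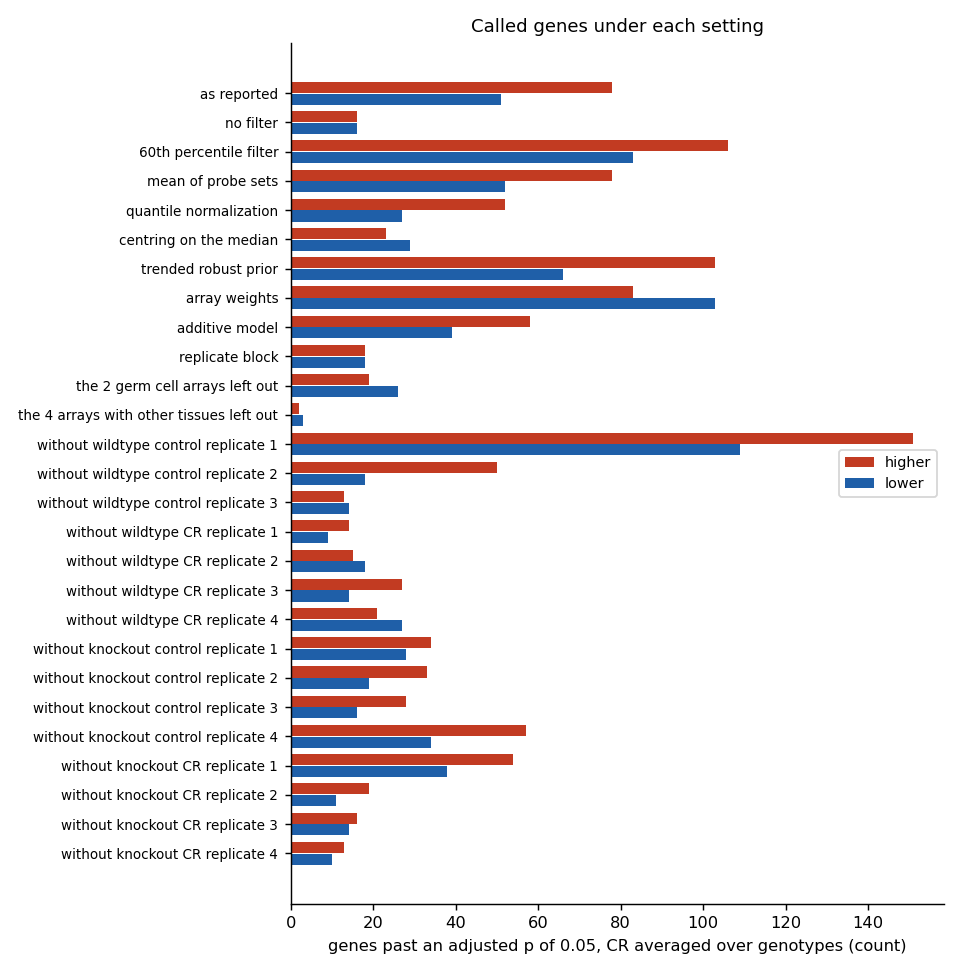
Number of genes past a limma adjusted p of 0.05 in the averaged contrast (x axis) as reported and under each other setting or without each array (y axis), higher in red and lower in blue. Leaving out wildtype control replicate 1 gave 151 higher and 109 lower genes, the most of any setting, and leaving out the 4 arrays with other tissues gave 2 and 3, the fewest.

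Igfbp3 and Peg3 had 2 of the largest increases among the genes past the threshold. Igfbp3 encodes a binding protein that carries insulin-like growth factors. It stood at 7.06, 6.98 and 6.56 on the wildtype control arrays and 7.62, 7.55, 7.48 and 7.95 on the wildtype CR arrays. In knockout mice it stood at 6.83, 7.11, 7.01 and 7.49 on the knockout control arrays and 8.11, 7.82, 7.67 and 7.93 on the knockout CR arrays. The diets did not overlap in either genotype, and the averaged log2 change was 0.78 (SE 0.11, limma adjusted p = 0.0127), or 1.71-fold, at 0.78 in wildtype and 0.77 in knockout mice. Igfbp3 passed in 15 of 15 fits without 1 array, and its change was 0.65 with the 2 germ cell arrays omitted and 0.58 with the 4 omitted.

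Peg3, a paternally expressed imprinted gene that encodes a zinc finger protein, had the largest averaged increase of any gene past the threshold, 0.89 (SE 0.17, limma adjusted p = 0.0328), or 1.85-fold. Its values were 6.66, 6.84 and 6.27 on the wildtype control arrays and 8.01, 7.59, 7.13 and 7.36 on the wildtype CR arrays. They were 7.05, 6.86, 6.42 and 7.45 on the knockout control arrays and 8.23, 7.79, 7.42 and 7.71 on the knockout CR arrays. The wildtype diets were separate, while knockout control replicate 4, at 7.45, lay above knockout CR replicate 3, at 7.42. Peg3 passed in 7 of 15 fits without 1 array. Of the 15 imprinted and growth genes tested, Peg3 was the 1 past the threshold and 10 had positive changes in both genotypes, with a list median of 0.16 against 0.03 over all genes, and 0.11 without wildtype control replicate 3. Zim1, the neighbour of Peg3 in the same imprinted cluster, was at 0.49 (SE 0.11, limma adjusted p = 0.0556), Igf2, a fetal growth factor, at 0.49 (SE 0.14, limma adjusted p = 0.0906), and Dlk1 at 0.25 (SE 0.07, limma adjusted p = 0.0948), none of them past the threshold.

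Of 27 genes of insulin and IGF signalling 1, Igfbp3, was higher and 1 lower, with a median of 0.03. The lower one was Tbc1d1, a Rab GTPase-activating protein that restrains glucose transporter movement to the cell surface. It stood at 8.42, 8.48 and 8.34 on the wildtype control arrays and 8.06, 7.99, 8.04 and 7.47 on the wildtype CR arrays, and at 8.04, 8.04, 8.74 and 8.27 on the knockout control arrays and 7.83, 7.75, 7.84 and 7.28 on the knockout CR arrays. All CR arrays lay below all control arrays in both genotypes, and replicate 4 was the lowest CR array in both. Its change was -0.56 (SE 0.13, limma adjusted p = 0.0497), and it passed in 0 of 15 fits without 1 array. Its relative Tbc1d4 was at 0.55 (SE 0.14, limma adjusted p = 0.0758). In the mTOR pathway 1 of 27 genes passed (list median 0.02): Tsc1, which encodes a subunit of the complex that inhibits mTORC1, was higher by 0.25 (SE 0.05, limma adjusted p = 0.0328), at 0.37 in wildtype and 0.12 in knockout mice, and passed in 5 of 15 fits without 1 array.

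Several sarcomere genes were also higher. Actc1, cardiac alpha-actin, which adult fast muscle expresses beside skeletal actin, stood at 11.18, 11.72 and 11.38 on the wildtype control arrays and 12.81, 12.91, 12.30 and 13.00 on the wildtype CR arrays. In knockout mice it stood at 12.51, 12.56, 12.66 and 12.20 on the knockout control arrays and 12.96, 12.77, 12.82 and 12.87 on the knockout CR arrays. The diets were separate in both genotypes, but the knockout control arrays were already above the wildtype control arrays, and the change was 1.33 in wildtype against 0.37 in knockout mice. The averaged change was 0.85 (SE 0.11, limma adjusted p = 0.00751). The difference between the genotypes was -0.96 (95% interval -1.43 to -0.49, limma adjusted p = 0.641). Actc1 passed in 15 of 15 fits without 1 array and stood at 0.85 without the 2 and 0.94 without the 4 arrays. It belongs to a list of denervation and immature fibre genes, of which 2 of 20, Actc1 and Mybph, were higher and 1, Ankrd1, lower (median 0.09).

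Several fast fibre contractile genes rose by small amounts. Of 18 tested, 5 were higher and 0 lower, 15 had positive changes in both genotypes, and in 9 the diets did not overlap in either. The list median was 0.12, and without any 1 array it lay between 0.11 and 0.13. Mylpf, the fast regulatory myosin light chain, stood at 11.19, 11.38 and 11.29 on the wildtype control arrays and 11.76, 11.85, 11.61 and 11.91 on the wildtype CR arrays. It stood at 11.41, 11.63, 11.67 and 11.54 on the knockout control arrays and 11.75, 11.85, 11.79 and 11.92 on the knockout CR arrays. Its averaged change was 0.38 (SE 0.06, limma adjusted p = 0.0127), without overlap of the diets, and it passed in 15 of 15 fits without 1 array. Actn3, the fast fibre alpha-actinin of the Z-disc, rose by 0.19 (SE 0.04, limma adjusted p = 0.0328), Myoz1, a Z-disc binding protein of fast fibres, by 0.18 (SE 0.04, limma adjusted p = 0.0348), and Tnni2, fast troponin I, by 0.18 (SE 0.04, limma adjusted p = 0.0461). Pvalb, parvalbumin, a calcium buffer of fast fibres, stood at 12.89, 12.89 and 12.96 on the wildtype control arrays and 13.05, 13.07, 13.03 and 13.06 on the wildtype CR arrays. In knockout mice it stood at 12.93, 12.86, 12.90 and 12.93 on the knockout control arrays and 13.07, 13.06, 13.05 and 13.07 on the knockout CR arrays. These arrays differed little within a group, and all CR values exceeded all control values, with a change of 0.15 (SE 0.03, limma adjusted p = 0.0484). Actn3 passed in 3, Myoz1 in 2, Tnni2 in 2 and Pvalb in 0 of 15 fits without 1 array. The mean over the list was 12.27 to 12.29 on wildtype control, 12.35 to 12.43 on wildtype CR, 12.29 to 12.37 on knockout control and 12.40 to 12.43 on knockout CR arrays. Without the 2 germ cell arrays 1 of the 18 passed (list median 0.13) and without the 4 arrays 0 passed (0.11). In tissue RNA, fewer cells of a type and less RNA per cell cannot be told apart, and this holds for each list given here.

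Slow fibre genes gave 0 of 17 past the threshold (median -0.14). The median was -0.32 without wildtype CR replicate 3, -0.01 without wildtype CR replicate 4, and with the 2 germ cell arrays omitted it was -0.35, with the 4 omitted -0.32. It also moved by over 1.5 times without any 1 of wildtype control replicates 1 and 3 and knockout control replicates 1 and 4 (-0.27 to -0.04). Their list mean ranged from 8.25 to 9.57 on wildtype CR arrays alone. Myoglobin (Mb), the oxygen store that is more abundant in oxidative fibres, was below all control arrays on all CR arrays of both genotypes, at -0.38 (SE 0.12, limma adjusted p = 0.115).

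Some glycolytic enzymes also rose. Of 27 tested, 2 were higher and 0 lower, 18 had positive changes in both genotypes and 6 had no overlap of the diets, with a median of 0.12. Tpi1, triosephosphate isomerase, stood at 12.03, 11.94 and 12.00 on the wildtype control arrays and 12.30, 12.23, 12.15 and 12.21 on the wildtype CR arrays. In knockout mice Tpi1 stood at 12.05, 12.08, 12.16 and 12.04 on the knockout control arrays and 12.28, 12.28, 12.22 and 12.29 on the knockout CR arrays. Within each genotype all CR arrays lay above all control arrays, and the change was 0.21 (SE 0.04, limma adjusted p = 0.0313). Pkm, pyruvate kinase, rose by 0.24 (SE 0.05, limma adjusted p = 0.0348), also without overlap. Ldha, lactate dehydrogenase A, was at 0.15 (SE 0.04, limma adjusted p = 0.0848) with no overlap, and Pgk1 at 0.22 (SE 0.06, limma adjusted p = 0.0758). Outside the list, Gpd1, cytosolic glycerol-3-phosphate dehydrogenase, rose by 0.40 (SE 0.07, limma adjusted p = 0.0313), and Ampd1, muscle AMP deaminase, by 0.22 (SE 0.04, limma adjusted p = 0.0313). In the list of pyruvate entry and the TCA cycle, 1 of 28 passed: Pdk2, which inhibits pyruvate dehydrogenase, rose by 0.21 (SE 0.04, limma adjusted p = 0.038), at 0.24 in wildtype and 0.19 in knockout mice. Tpi1 and Gpd1 passed in 9, Ampd1 in 7, Pkm in 4 and Pdk2 in 3 of 15 fits without 1 array. Without the 2 and without the 4 arrays 0 glycolysis genes passed, with medians of 0.08 and 0.10.

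Other large increases came from genes of varied function. Ctxn3, cortexin 3, a small membrane protein, stood at 8.12, 8.38 and 8.01 on the wildtype control arrays and 9.07, 9.19, 8.75 and 9.31 on the wildtype CR arrays. In knockout mice it stood at 7.58, 8.34, 8.44 and 8.62 on the knockout control arrays and 8.81, 8.70, 9.32 and 9.47 on the knockout CR arrays. The diets were separate, and the change was 0.87 (SE 0.16, limma adjusted p = 0.0313), with 0.91 in wildtype and 0.83 in knockout mice. Smyd2, a lysine methyltransferase that acts on sarcomere-associated HSP90, stood at 9.77, 9.93 and 9.47 on the wildtype control arrays and 10.21, 10.21, 10.33 and 10.26 on the wildtype CR arrays. It stood at 9.28, 9.92, 9.58 and 10.02 on the knockout control arrays and 10.34, 10.13, 10.18 and 10.26 on the knockout CR arrays. The control arrays spread more widely than the CR arrays, without overlap, and the change of 0.53 (SE 0.10, limma adjusted p = 0.0328) was equal in both genotypes to 2 decimals. Pla2g4e, a cytosolic phospholipase A2, rose by 0.70 (SE 0.13, limma adjusted p = 0.0313) without overlap. Dhrs7c, a short-chain dehydrogenase of the sarcoplasmic reticulum, rose by 0.56 (SE 0.09, limma adjusted p = 0.0163), and knockout control replicate 2 overlapped the knockout CR arrays. With Pvalb it was the other of 2 genes past the threshold among 25 calcium handling genes (median 0.09). Ctnnbip1, an inhibitor of beta-catenin signalling, rose by 0.50 (SE 0.07, limma adjusted p = 0.0127) without overlap.

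Dusp7, a MAP kinase phosphatase, was higher by 0.53 (SE 0.10, limma adjusted p = 0.0328), and Ccdc141 by 0.54 (SE 0.10, limma adjusted p = 0.0328). Pigp, a subunit of the enzyme that starts GPI anchor synthesis, was higher by 0.49 (SE 0.09, limma adjusted p = 0.0313). Ube4a, a ubiquitin chain elongation factor, was higher by 0.53 (SE 0.11, limma adjusted p = 0.0478) and was the 1 gene past the threshold among 21 FOXO and atrophy genes (median 0.13, at 0.06 without wildtype control replicate 3, 0.08 without knockout control replicate 1, and with the 2 germ cell arrays omitted at 0.01, with the 4 omitted at -0.01). Of the genes in these 2 paragraphs, Dhrs7c and Ctnnbip1 passed in 15 of 15 fits without 1 array, Pla2g4e in 12, Ctxn3 in 9, Ccdc141 in 8, Smyd2 and Pigp in 6, Dusp7 in 5 and Ube4a in 3. The smallest adjusted p of the contrast belonged to Mafa, a basic leucine zipper transcription factor, and to Misp3, with changes of 0.46 (SE 0.06, limma adjusted p = 0.0059) and 0.40 (SE 0.05, limma adjusted p = 0.0059). In both, all CR arrays lay above all control arrays of the same genotype. Gstm2, a muscle glutathione transferase, rose by 0.43 (SE 0.06, limma adjusted p = 0.0127) without overlap, whereas Gclm, the regulatory subunit of glutathione synthesis, fell by 0.34 (SE 0.07, limma adjusted p = 0.0478). These were the 2 genes past the threshold among 28 NRF2 and antioxidant genes (median -0.03). Gclm passed in 0 of 15 fits without 1 array.

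**Figure D3:**
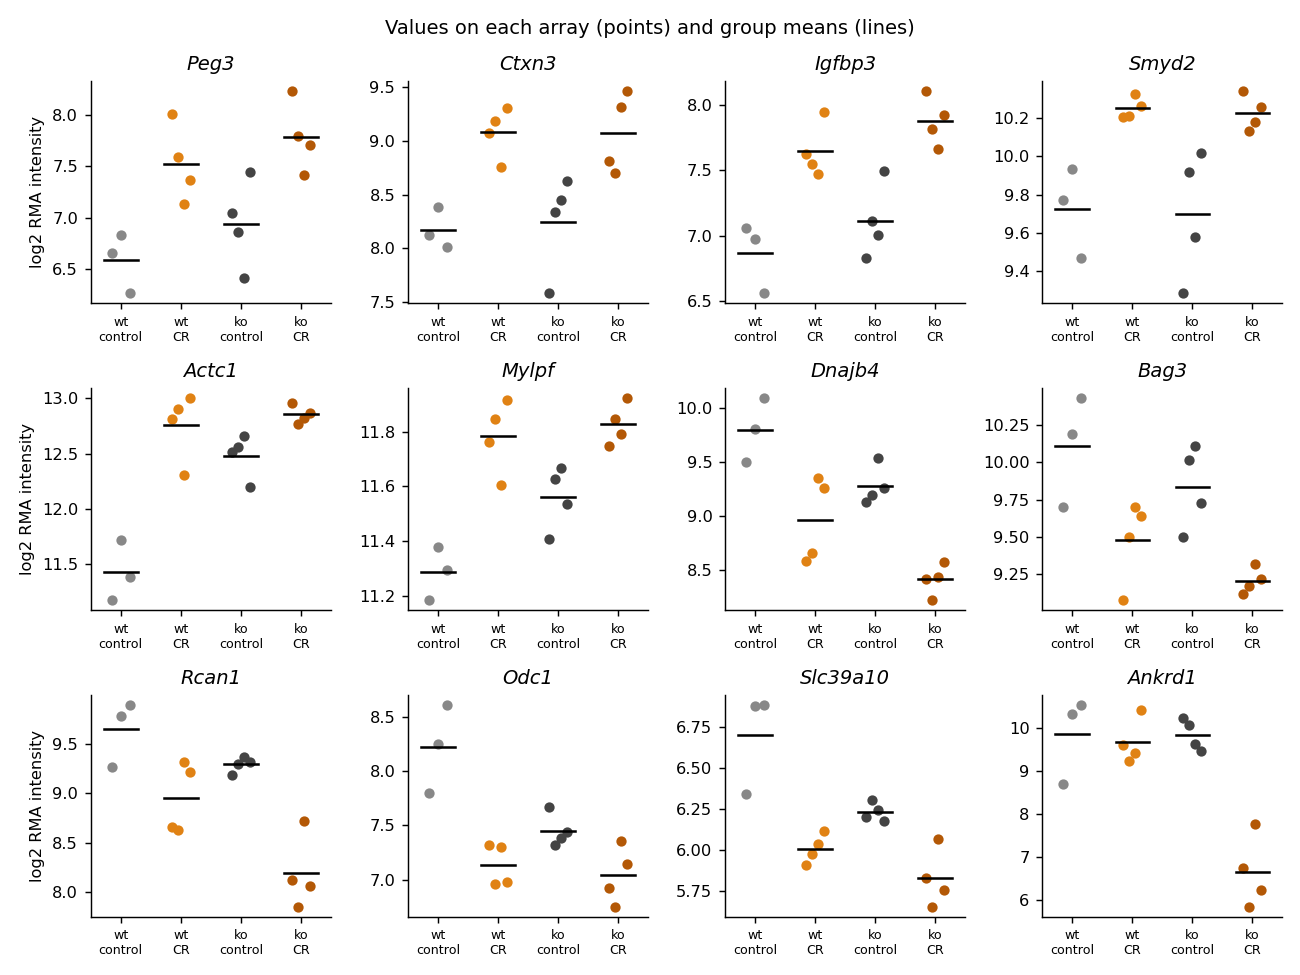
Log2 RMA intensity (y axis, 1 scale per gene, not starting at 0) of 12 genes on each of the 15 arrays by group (x axis; wt, wildtype; ko, knockout), with a line at each group mean. In Ctxn3, Igfbp3, Smyd2, Actc1 and Mylpf every CR array lies above every control array of its genotype, in Dnajb4, Bag3 and Slc39a10 every CR array lies below, and Ankrd1 is low on the knockout CR arrays alone, at 5.84 to 7.75.

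Of the 45 gene lists examined, the heat shock list held the most genes past the threshold as lower. The proteins fall into large chaperones (HSP70 and HSP90), their J domain partners (the Dnaj genes), small heat shock proteins and cofactors such as Bag3, and heat shock factor 1 switches on many of them when unfolded protein builds up. Of 26 tested, 6 were lower and 0 higher, 20 had negative changes in both genotypes and 0 had positive changes in both. The list median was -0.31, at -0.17 in wildtype and -0.44 in knockout mice, against 0.03 over all genes. The list mean was 8.73 to 9.42 on wildtype control, 8.69 to 8.92 on wildtype CR, 8.79 to 9.04 on knockout control and 8.27 to 8.37 on knockout CR arrays. The wildtype diets thus overlapped and the knockout diets did not. Without any 1 array the list median lay between -0.34 and -0.26. Without the 2 germ cell arrays it was -0.26 with 5 genes lower, and without the 4 arrays -0.24 with 0 past the threshold.

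Promoters of the 6 lower heat shock genes were searched for the heat shock element, the inverted repeat that heat shock factors bind. Promoter windows of 250 bases before to 50 after the start site came from RefSeq (GRCm38.p6), and 5 of the 6 genes had one. The motif of 3 units, GAA, TTC and GAA with any 2 bases between neighbours, was searched first on both strands and was in 0 of the 5, in 4 of 22 heat shock list genes with a window (18.2%) and in 0.603% of all windows. A shorter motif of 2 units, GAANNTTC, which lies inside the longer one and reads the same on both strands, was added after that result. It was in 3 of the 5, in 13 of the 22 (59.1%), in 6.89% of all tested genes with a window and in 7.86% of all windows. Among all genes past the threshold it was in 7 of 41 lower genes (17.1%) and in 5 of 58 higher genes (8.62%). Hspb1 and Dnaja4 had 2 matches each before the start site, shown in capitals within positions -140 to -41. In Hspb1 they began at -117 and -97, and in Dnaja4 at -90 and -52. Dnaja4 also had a window for a start site further upstream. That window held 0 matches, and the matches given lie after that site.
Hspb1 (chr5:135887779-135887878, + strand): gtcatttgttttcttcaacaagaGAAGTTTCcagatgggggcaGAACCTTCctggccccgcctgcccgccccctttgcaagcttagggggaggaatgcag
Dnaja4 (chr9:54699419-54699518, + strand): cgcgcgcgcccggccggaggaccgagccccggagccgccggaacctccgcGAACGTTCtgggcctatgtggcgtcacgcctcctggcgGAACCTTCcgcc
The match in Bag3 began 42 bases after its start site, and GAANNTTC was not found in the windows of Dnajb4 and Hspa4. The other order of 2 units, TTCNNGAA, also lies inside the longer motif and was not searched. A window of Dnajb4 holds it, so a lack of GAANNTTC is not a lack of every element of 2 units.

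Hspb1, with 2 matches in its promoter, encodes the small heat shock protein HSP27. It stood at 11.33, 12.03 and 12.33 on the wildtype control arrays and 11.61, 11.66, 11.50 and 11.70 on the wildtype CR arrays. In knockout mice it stood at 12.02, 11.85, 11.93 and 11.52 on the knockout control arrays and 10.44, 10.05, 10.64 and 10.30 on the knockout CR arrays. The wildtype diets overlapped and the knockout diets lay apart, with changes of -0.28 and -1.47. The averaged change was -0.87 (SE 0.13, limma adjusted p = 0.0127), and -0.57 without the 4 arrays. Dnaja4, a J domain cochaperone, fell by 0.67 (SE 0.10, limma adjusted p = 0.0127), with -0.35 in wildtype and -0.98 in knockout mice.

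Dnajb4, a J domain cochaperone that acts with HSP70, fell with nearly equal estimates in both genotypes. It stood at 9.50, 9.81 and 10.09 on the wildtype control arrays and 8.58, 8.66, 9.35 and 9.26 on the wildtype CR arrays. It stood at 9.13, 9.20, 9.54 and 9.26 on the knockout control arrays and 8.42, 8.23, 8.44 and 8.57 on the knockout CR arrays. Within each genotype all CR arrays were below all control arrays. The change was -0.85 (SE 0.13, limma adjusted p = 0.0127), at -0.84 in wildtype and -0.86 in knockout mice. The difference between the genotypes was -0.03 with a 95% interval of -0.58 to 0.52. Bag3, a cochaperone that directs damaged Z-disc proteins to autophagy, stood at 9.70, 10.19 and 10.43 on the wildtype control arrays and 9.08, 9.50, 9.70 and 9.64 on the wildtype CR arrays. In knockout mice Bag3 stood at 9.50, 10.01, 10.11 and 9.73 on the knockout control arrays and 9.12, 9.17, 9.32 and 9.22 on the knockout CR arrays. The diets were apart in knockout mice, and in wildtype mice the highest CR array lay just below the lowest control array, equal at 2 decimals. The change was -0.63 (SE 0.13, limma adjusted p = 0.0348) and -0.63 in each genotype. Hspa4, an HSP110 family member, fell by 0.30 (SE 0.06, limma adjusted p = 0.0313) without overlap.

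Hsp90aa1, the inducible cytosolic HSP90, varied widely among control arrays. It stood at 8.11, 9.36 and 10.30 on the wildtype control arrays and 7.77, 8.41, 8.72 and 8.30 on the wildtype CR arrays. It stood at 8.90, 8.89, 8.52 and 8.16 on the knockout control arrays and 7.18, 7.17, 7.27 and 7.19 on the knockout CR arrays. The highest value was on wildtype control replicate 3, an array with germ cell transcripts, and the lowest wildtype control array lay below 3 of the 4 wildtype CR arrays, while the knockout diets were separate. Its change was -1.19 (SE 0.25, limma adjusted p = 0.0461), -0.88 with the 2 germ cell arrays omitted and -0.57 with the 4 omitted. Hsp90aa1 passed in 2 of 15 fits without 1 array, Bag3 in 3, Hspa4 in 7 and Hspb1, Dnaja4 and Dnajb4 in 15.

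The other 20 members did not pass. Hspa1a, the inducible HSP70, had the largest averaged difference, -1.73 (SE 0.49, limma adjusted p = 0.0963), and Dnajb1 was at -1.16 (SE 0.31, limma adjusted p = 0.0875). Hsph1 was at -0.44 (SE 0.10, limma adjusted p = 0.0525), with -0.13 in wildtype and -0.76 in knockout mice. Cryab, alpha-B crystallin, had opposite signs, 0.16 and -0.44. Hspa1l, a testis-enriched HSP70 that is in the germ cell list, had no overlap between diets and an averaged difference of -0.86 (SE 0.22, limma adjusted p = 0.0701), with its highest values on the 2 germ cell arrays, 10.30 and 9.75, and -0.49 without them. Of 30 ER folding and secretory genes 0 passed, but 20 were negative in both genotypes (median -0.12), with Pdia3, a disulfide isomerase, at -0.50 (SE 0.11, limma adjusted p = 0.0525), or -0.25 without the 4 arrays. Among 34 proteasome genes 1 passed (median 0.03, at 0.12 in wildtype and -0.08 in knockout mice). This was Psme4, a proteasome activator, which fell by 0.23 (SE 0.05, limma adjusted p = 0.0461) without overlap and passed in 2 of 15 fits without 1 array.

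**Figure D4:**
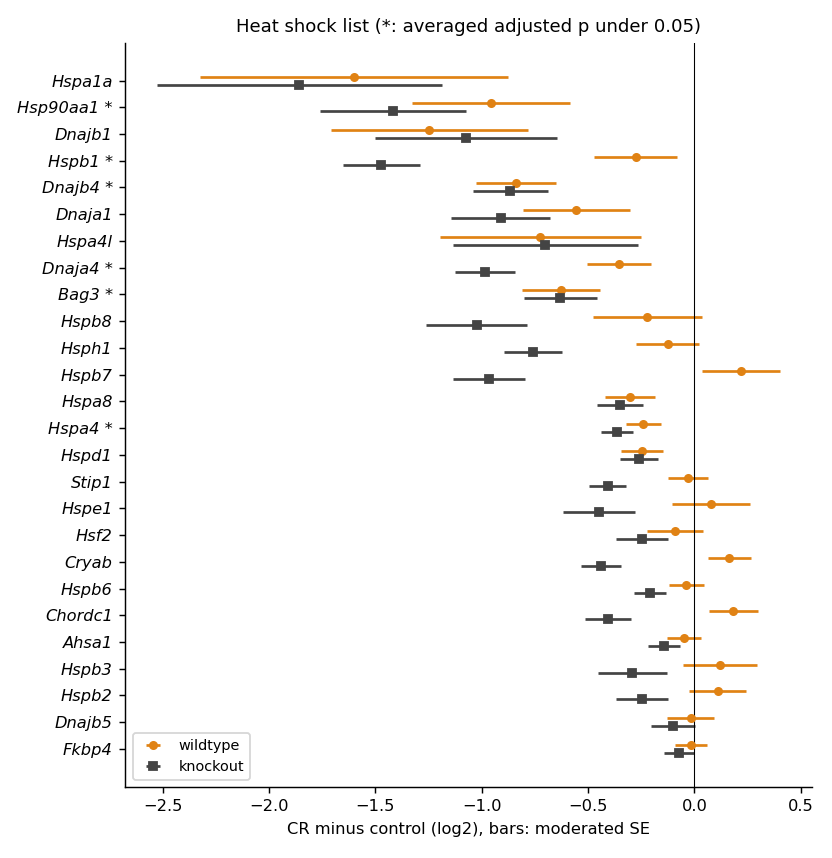
Change under CR (x axis, log2, with the moderated standard error) in wildtype (orange circles) and knockout mice (black squares) for the 26 heat shock list genes tested (y axis), with a star where the averaged limma adjusted p was under 0.05. Dnajb4 and Bag3 have nearly equal changes in both genotypes, whereas Hspb1 stands at -0.28 in wildtype and -1.47 in knockout mice.

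Genes of the Z-disc and of stretch sensing split in direction. Of 27 tested, 5 were lower and 2, Actn3 and Myoz1, higher, with a median of -0.12, at 0.03 in wildtype and -0.22 in knockout mice. The list mean lay at 10.51 to 10.67 on wildtype control, 10.48 to 10.64 on wildtype CR, 10.55 to 10.71 on knockout control and 10.02 to 10.29 on knockout CR arrays. The 5 lower genes had negative changes in both genotypes, but the larger part of each came from knockout mice. Ankrd1, a stretch-responsive ankyrin repeat protein, stood at 8.70, 10.32 and 10.54 on the wildtype control arrays and 9.61, 9.22, 9.41 and 10.42 on the wildtype CR arrays. In knockout mice it stood at 10.23, 10.07, 9.61 and 9.46 on the knockout control arrays and 6.73, 5.84, 7.75 and 6.23 on the knockout CR arrays. Its averaged change was -1.70 (SE 0.32, limma adjusted p = 0.0328), but the wildtype change was -0.19 with overlapping diets, and the knockout change -3.21. The difference between the genotypes was -3.02 (95% interval -4.40 to -1.64, limma adjusted p = 0.641 over all genes).

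Flnc, filamin C, a Z-disc crosslinker that Bag3 helps to clear, fell by 0.85 (SE 0.14, limma adjusted p = 0.0168), with -0.26 in wildtype and -1.44 in knockout mice. Enah, an actin assembly factor, fell by 0.91 (SE 0.16, limma adjusted p = 0.0269), with -0.47 and -1.34. Xirp1, an actin-binding protein of damaged fibres, fell by 1.30 (SE 0.28, limma adjusted p = 0.0478), with -0.72 and -1.87, and Lmcd1 by 0.72 (SE 0.16, limma adjusted p = 0.0478), with -0.13 and -1.32. In all 4 genes the wildtype diets overlapped and the knockout diets did not. Flnc passed in 14, Enah in 11, Ankrd1 in 5 and Xirp1 and Lmcd1 in 2 of 15 fits without 1 array. With the 2 germ cell arrays omitted 1 of the 27 list genes passed, and with the 4 omitted 0. Outside the list, Klhl40, which stabilises thin filament proteins, fell by 1.05 (SE 0.20, limma adjusted p = 0.0329), and Klhl30, a member of the same Kelch family, by 0.75 (SE 0.16, limma adjusted p = 0.0461), or -0.45 without the 4 arrays.

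Rcan1, a calcineurin inhibitor that is itself induced by calcineurin signalling, stood at 9.27, 9.78 and 9.89 on the wildtype control arrays and 8.66, 8.63, 9.31 and 9.22 on the wildtype CR arrays. In knockout mice Rcan1 stood at 9.18, 9.30, 9.36 and 9.32 on the knockout control arrays and 8.12, 7.86, 8.72 and 8.07 on the knockout CR arrays. The knockout diets were apart, and among wildtype arrays the highest CR value, 9.31, lay above the lowest control value, 9.27. Its change was -0.90 (SE 0.14, limma adjusted p = 0.0163), and it passed in 15 of 15 fits without 1 array. Dusp10, a phosphatase of stress-activated MAP kinases, fell by 0.77 (SE 0.17, limma adjusted p = 0.0468) without overlap, with knockout control replicate 1 at 8.65 above the other knockout control arrays at 7.47 to 7.60. Otud1, a deubiquitinase, had the second largest decrease among the genes past the threshold, -1.50 (SE 0.33, limma adjusted p = 0.0492). It was at -0.90 in wildtype with overlap and -2.10 in knockout mice. Otud1 passed in 2, Dusp10 in 4, Klhl40 in 3 and Klhl30 in 2 of 15 fits without 1 array.

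Odc1 and Slc39a10 fell, with the larger estimates in wildtype mice. Odc1, ornithine decarboxylase, starts polyamine synthesis and stood at 7.80, 8.25 and 8.61 on the wildtype control arrays and 7.32, 6.96, 7.30 and 6.97 on the wildtype CR arrays. In knockout mice Odc1 stood at 7.67, 7.32, 7.38 and 7.44 on the knockout control arrays and 6.92, 6.75, 7.35 and 7.15 on the knockout CR arrays. The wildtype diets were separate, and 1 knockout CR array, at 7.35, lay above the lowest knockout control array, at 7.32. The change was -0.75 (SE 0.12, limma adjusted p = 0.0167), with -1.08 in wildtype and -0.41 in knockout mice, and -0.47 without the 4 arrays. It was the 1 of 10 polyamine genes past the threshold (median -0.01). Slc39a10, a zinc importer of the plasma membrane, stood at 6.34, 6.88 and 6.89 on the wildtype control arrays and 5.90, 5.97, 6.03 and 6.11 on the wildtype CR arrays. It stood at 6.20, 6.31, 6.24 and 6.18 on the knockout control arrays and 5.83, 5.65, 6.06 and 5.75 on the knockout CR arrays. Both genotypes were without overlap, and the change was -0.55 (SE 0.08, limma adjusted p = 0.0127). It was the 1 of 17 zinc transporter and metallothionein genes past the threshold (median -0.06).

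Matrix and tendon genes had negative medians. Tendon markers had a median of -0.33, with 1 of 14 past the threshold and 10 negative in both genotypes, and collagen and matrix genes a median of -0.12, with 1 of 33 past and 20 negative in both. Prg4, lubricin, the lubricant of joints and tendons, fell by 0.67 (SE 0.14, limma adjusted p = 0.0461), with -0.65 in wildtype and -0.69 in knockout mice. Sparc, a collagen-binding matrix glycoprotein, stood at 10.76, 10.95 and 11.07 on the wildtype control arrays and 10.41, 10.53, 10.62 and 10.44 on the wildtype CR arrays. It stood at 10.87, 10.48, 10.52 and 10.53 on the knockout control arrays and 10.45, 10.39, 10.36 and 10.43 on the knockout CR arrays. Within each genotype all CR arrays were below all control arrays. The change was -0.31 (SE 0.07, limma adjusted p = 0.0461), or -0.17 without the 4 arrays. Tnmd, tenomodulin, was at -0.55 (SE 0.13, limma adjusted p = 0.0541). Lamc1, a laminin chain, was at -0.24 (SE 0.05, limma adjusted p = 0.0525) without overlap. The mean over the 34 collagen and matrix genes on the array was 7.41 to 7.53 on wildtype control, 7.27 to 7.38 on wildtype CR, 7.30 to 7.48 on knockout control and 7.20 to 7.33 on knockout CR arrays. Prg4 and Sparc each passed in 2 of 15 fits without 1 array.

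Marker lists of other cell types also had medians away from that of all genes, and their part in the results was not tested. Fibroblast and fibro-adipogenic progenitor markers had a median of -0.18 over 11 genes, and 1 passed: Cd34 fell by 0.24 (SE 0.05, limma adjusted p = 0.0461) without overlap. Cd34 passed in 1 of 15 fits without 1 array. Their list mean was 7.80 to 8.02 on wildtype control, 7.72 to 7.79 on wildtype CR, 7.73 to 7.86 on knockout control and 7.62 to 7.78 on knockout CR arrays. Macrophage and antigen presentation markers had a median of -0.25, with 14 of 16 negative in both genotypes and 0 past the threshold. Over all 25 of these genes on the array, 9 of them below the filter, the mean was 5.91 to 6.25 on wildtype control, 5.72 to 5.90 on wildtype CR, 5.90 to 6.01 on knockout control and 5.66 to 5.99 on knockout CR arrays. H2-Ab1, an MHC class II chain, was at -0.76 (SE 0.19, limma adjusted p = 0.0725). Adipocyte markers had a median of 0.43, with 9 of 10 positive in both genotypes and 0 past the threshold, and Adipoq was at 0.81 (SE 0.34, limma adjusted p = 0.214). Over all 12 on the array, 2 of them below the filter, their mean spread widely, at 6.93 to 7.37 on wildtype control, 6.91 to 8.14 on wildtype CR, 7.10 to 7.67 on knockout control and 7.30 to 8.24 on knockout CR arrays. Of the markers of skeletal muscle fibres themselves, 3 of 15 were past the threshold as higher and 0 as lower (median 0.11). These 3, Mylpf, Tnni2 and Pvalb, were given above with the fast fibre genes, so they are not further genes. Of the 15 markers, 9 were higher without overlap, among them creatine kinase (Ckm) at 0.11 (SE 0.03, limma adjusted p = 0.122), and 1, Mb, was lower without overlap.

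**Figure D5:**
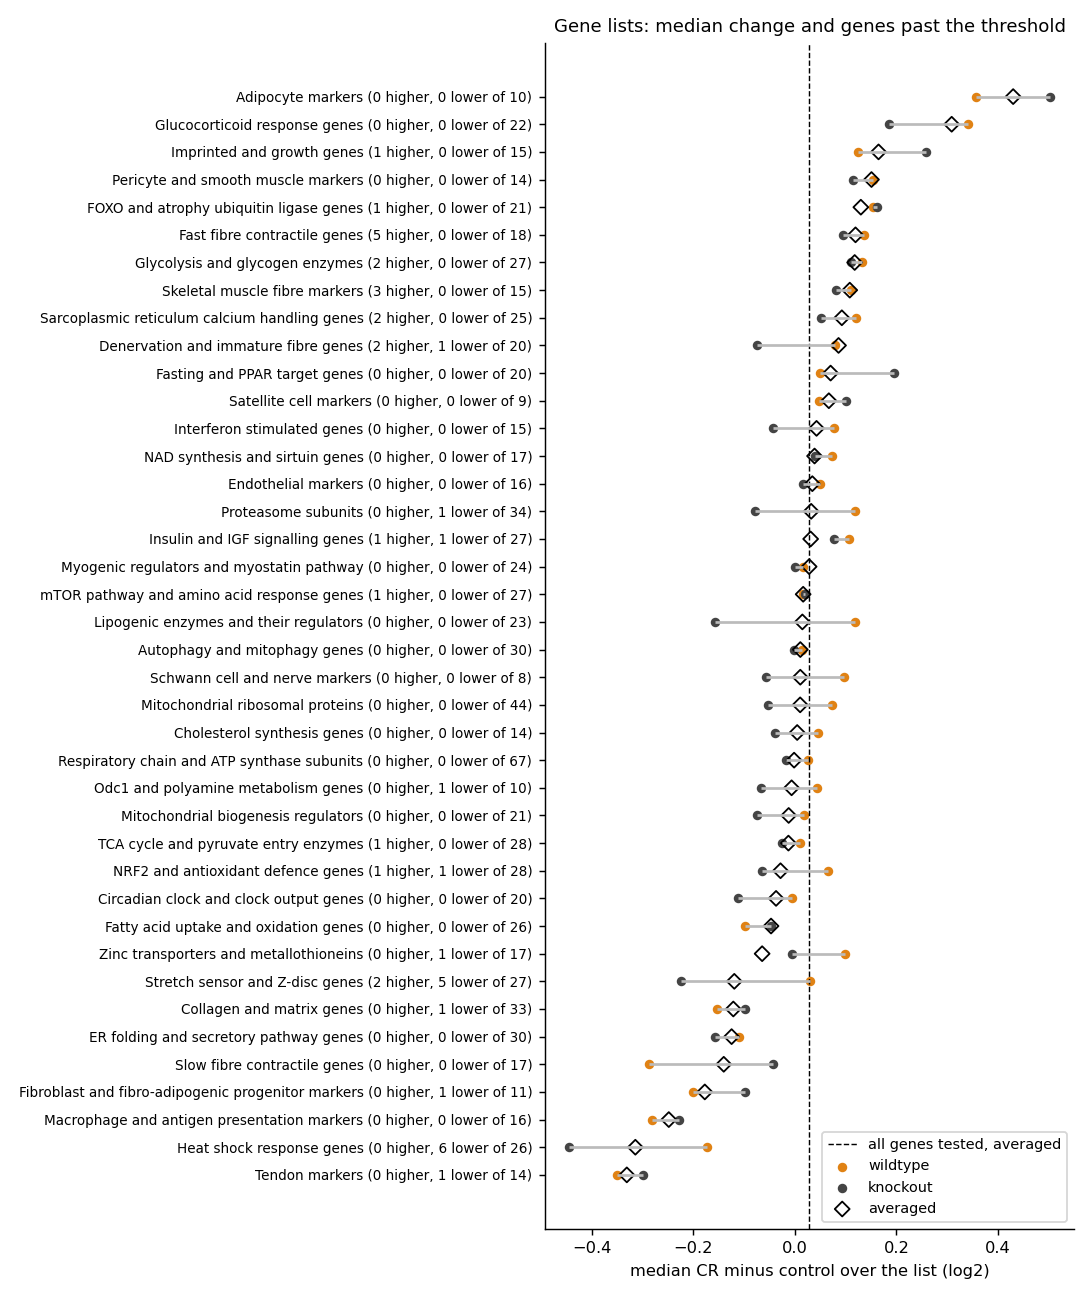
Median change under CR (x axis, log2) over the tested genes of 40 gene lists (y axis, with the counts past a limma adjusted p of 0.05) in wildtype (orange), in knockout mice (black) and averaged (diamonds), and the median over all genes tested as a dashed line. The germ cell, pancreatic and liver lists and lists with under 5 tested genes are not shown. Among the 40 shown, adipocyte markers have the highest averaged median, 0.43, with 0 of 10 genes past the threshold, and tendon markers and heat shock genes the lowest, -0.33 and -0.31.

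In 26 of the 45 lists no gene passed. Beside those already given, the medians were 0.31 for 22 glucocorticoid response genes, 0.07 for 20 fasting and PPAR target genes, -0.05 for 26 fatty acid uptake and oxidation genes and -0.04 for 20 clock genes. The fatty acid median was -0.15 without the 2 germ cell arrays, with 2 genes past the threshold as lower, and -0.20 without the 4. The clock median was -0.08 without the 2, with 1 gene past the threshold as lower, and -0.01 without the 4. Mitochondrial lists were close to the median of all genes, at -0.00 for 67 respiratory chain and ATP synthase subunits, 0.01 for 44 mitochondrial ribosomal proteins and -0.01 for 21 regulators of mitochondrial biogenesis. Medians were 0.01 for 30 autophagy genes, 0.01 for 23 lipogenic genes, 0.00 for 14 cholesterol synthesis genes, 0.04 for 17 NAD and sirtuin genes, 0.03 for 24 myogenic genes and 0.04 for 15 interferon genes. Some averages near 0 joined opposite signs. The lipogenic median was 0.12 in wildtype and -0.16 in knockout mice, and the mitochondrial ribosomal median 0.07 and -0.05. Of other cell markers, pericyte and smooth muscle genes were at 0.15 (14 tested), endothelial genes at 0.03 (16), satellite cell genes at 0.07 (9), Schwann cell genes at 0.01 (8), erythroid genes at 0.27 (3 tested, 0 past the threshold) and lymphocyte genes at 0.02 (2). The mean over the 4 erythroid genes on the array was 5.51 to 5.81 on wildtype control, 5.85 to 6.11 on wildtype CR, 5.74 to 5.97 on knockout control and 6.15 to 6.23 on knockout CR arrays, without overlap in either genotype. The 7 pancreatic acinar genes tested were at -1.30, with -2.66 in wildtype and 0.12 in knockout mice, and at -0.22 without wildtype control replicate 2. The 14 liver genes were at -0.17, from -0.55 without wildtype CR replicate 4 to 0.16 without wildtype control replicate 1, and at -1.07 without the 4 arrays. For 9 of the 15 arrays, leaving out 1 moved the liver median by over 1.5 times. The glucocorticoid median was 0.18 without knockout control replicate 1, and with the 2 germ cell arrays omitted it was 0.12, with the 4 omitted 0.05. The fasting and PPAR median turned to -0.01 without knockout control replicate 1, -0.04 without the 2 and -0.12 without the 4, and moved to 0.04, 0.11 and 0.16 without wildtype control replicates 3 and 1 and knockout control replicate 4. The glucocorticoid list had 17 genes positive in both genotypes, and Klf15, a direct target of the glucocorticoid receptor, was at 0.35 (SE 0.14, limma adjusted p = 0.187), or 0.16 without the 2 arrays and 0.07 without the 4. Cpt2, an enzyme of fatty acid import into mitochondria, was at -0.36 (SE 0.09, limma adjusted p = 0.0668), and at -0.45 (limma adjusted p = 0.042) without the 2 germ cell arrays. Dbp, a clock output factor, was at -0.55 (SE 0.17, limma adjusted p = 0.119), and Myl9, a smooth muscle myosin light chain, at 0.47 (SE 0.11, limma adjusted p = 0.0541).

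Probe sets assigned to 3 miRNA genes passed the threshold. They are assigned to the hairpin gene, so the arms cannot be told apart. Whether they read the mature miRNA, its precursor or a transcript that the hairpin lies in was not tested. The mature sequences from RefSeq (GRCm38.p6) are shown with the seed, bases 2 to 8, in capitals, since the seed sets which targets a miRNA can pair with; no 2 of them share a seed.
mmu-miR-409-3p: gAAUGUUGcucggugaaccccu
mmu-miR-409-5p: aGGUUACCcgagcaacuuugcau
mmu-miR-497a-5p: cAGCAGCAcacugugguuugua
mmu-miR-497a-3p: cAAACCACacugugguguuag
mmu-miR-568: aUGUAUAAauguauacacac
Mir409, which lies within Mirg in the imprinted Dlk1-Meg3 region on chromosome 12, was higher by 0.26 (SE 0.05, limma adjusted p = 0.0328), at 0.10 in wildtype and 0.41 in knockout mice. It lay at 5.20, 5.30 and 5.11 on the wildtype control arrays and 5.23, 5.30, 5.41 and 5.30 on the wildtype CR arrays. In knockout mice Mir409 lay at 5.16, 5.22, 5.10 and 5.35 on the knockout control arrays and 5.55, 5.67, 5.60 and 5.67 on the knockout CR arrays. The wildtype diets overlapped, and several values lay below the filter value of 5.32. Mir431 of the same region did not pass, with a change of 0.31 (SE 0.07, limma adjusted p = 0.0614), although within each genotype all its CR arrays exceeded all control arrays. Mir497 on chromosome 11, also near the filter value, was higher by 0.22 (SE 0.05, limma adjusted p = 0.0478). Mir568, which lies within Tigit on chromosome 16, was lower, at -0.46 (SE 0.10, limma adjusted p = 0.0492). Mir409 passed in 4, Mir568 in 2 and Mir497 in 1 of 15 fits without 1 array.

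The wildtype and knockout comparisons share no array, so genes called in 1 genotype could be followed in mice of the other. Both use the same estimate of the spread per gene, from all 15 arrays. A gene called in 1 genotype partly for a small spread therefore also has a smaller p in the other. The p-values in the other genotype are thus not independent of the call. In wildtype mice 15 genes passed a limma adjusted p of 0.05 (0.124% of the genes tested). In knockout mice 13 of the 15 had the same sign, where 66.3% of all genes did, and 12 also had an unadjusted limma p under 0.05. Of these 12, 10 were higher, as 6.79% of all genes were in knockout mice by that rule, and 2, Odc1 and Slc39a10, were lower, as 5.17% of all genes were. The 10 were Actc1, Afap1l1, Ctnnbip1, Dhrs7c, Gstm2, Mafa, Misp3, Mylpf, Ppp1ca and Rpl10a, each with a smaller change in knockout than in wildtype mice. The other same-sign gene was 2310022A10Rik, at 0.44 and 0.06. Stxbp4, a syntaxin-binding protein, was at 0.64 in wildtype and near 0 in knockout mice.

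In knockout mice 8 genes passed (0.0664% of the genes tested), and all 8 had the same sign in wildtype mice. For 2 of them, Dnaja4 and Rnf115, a ubiquitin ligase, the unadjusted limma p in wildtype was under 0.05, both lower, as 3.40% of all genes were in wildtype mice by that rule (9.72% were higher). Wildtype changes were -0.47 for Enah, -0.28 for Hspb1, -0.26 for Flnc, -0.19 for Ankrd1, -0.13 for Lmcd1 and 0.10 for Mir409. The averaged contrast called 107 genes that were called in neither genotype alone.

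A shared sign is not an equal size. The difference between the responses of the genotypes passed a limma adjusted p of 0.05 for 0 of 12056 genes, with 689 genes at an unadjusted p under 0.05. Of the 128 genes with a shared sign, 28 had an unadjusted p under 0.05 for this difference, and the smallest adjusted p among them was 0.641. With wildtype control replicate 2 omitted 7 genes passed, with knockout CR replicate 2 omitted 1, and with the 4 arrays omitted 6. The 95% intervals of the difference were wide even where the estimates were alike: -0.50 to 0.47 for Igfbp3, -0.83 to 0.64 for Peg3, -0.43 to 0.43 for Smyd2 and -0.54 to 0.54 for Bag3.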

How the data were processed

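Gastrocnemius RNA of 15 mice was hybridised to 1 Affymetrix array each. The deposited values are log2 RMA intensities, per the submitters' processing notes, which name no RMA version. Of 35556 probe sets, 21789 had 1 gene symbol in the platform annotation, 1621 had several and 12146 were not listed there. Each gene was read from its brightest probe set, and genes at or below the 40th percentile of mean log2 intensity over the listed probe sets (5.32) were left out. Array medians were 5.40 to 5.48, and the number of arrays limits the precision.

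A model with 1 mean per group was fitted with limma 3.58.1 in R 4.3.3 (lmFit and eBayes), with 3 contrasts beside the average: each genotype alone and their difference. P-values are two-sided and Benjamini-Hochberg adjusted over all 12056 genes, with a threshold of 0.05. Fits were tested on simulated data. Named genes were the 12 with the largest averaged change in each direction past the threshold with a shared sign, up to 4 members per list by p, and the 6 largest per direction without overlap; genes called in 1 genotype were named too, and any other gene was chosen after its values were seen. Genes and lists were chosen with earlier results of these data known. Alternatives were the filter, probe set rule, scaling, variance model, array weights, an additive model, a replicate block and left-out arrays. Figures used Python 3.11.15 and matplotlib 3.10.9.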

Additional observations from a re-analysis of the deposited data

Results flagged for a closer look

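In groups of 4 arrays, 18 of the 255 group values of 85 genes held 1 array far from the other 3 by Dixon's test, where chance gives about 1 in 20. On knockout control replicate 1, one of the arrays with germ cell transcripts, Kpna2 stood at 8.32 (others 6.96 to 7.05), Hspa1l at 9.75 (8.73 to 8.83), Dusp10 at 8.65 (7.47 to 7.60), Lmcd1 at 10.89 (10.12 to 10.19) and Sparc at 10.87 (10.48 to 10.53), all above the other knockout control arrays, while Mvd stood below them at 6.02 (6.17 to 6.20). Knockout control replicate 4 was high for Actn3 at 12.84 (12.68 to 12.70). Tbc1d1 was low on replicate 4 of both CR groups, at 7.47 in wildtype (7.99 to 8.06) and 7.28 in knockout mice (7.75 to 7.84).

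On knockout CR replicate 1, Ctnnbip1 was high at 7.58 (7.27 to 7.32), Ifit3 was high at 6.49 (5.53 to 5.67) and Pkm was low at 11.76 (the others at 11.82). Tpi1 was low on knockout CR replicate 3 at 12.22 (12.28 to 12.29). Cldn5 was high on wildtype CR replicate 4 at 7.43 (7.14 to 7.18). On wildtype CR replicate 3, Cd34 was high at 8.61 (8.44 to 8.47), Rpl10a was low at 11.32 (11.40 to 11.41) and Mybph was low at 9.96 (10.31 to 10.39). Mybph was high on knockout CR replicate 2 at 10.05 (9.61 to 9.66).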

How the results depend on the processing

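All 128 genes with a shared sign kept their direction and an unadjusted limma p under 0.05 in every fit in which they were tested, which their choice on mostly the same arrays largely fixes. The counts past the threshold were less stable. Against 78 higher and 51 lower genes, there were 16 and 16 with no filter, 23 and 29 after centring, 106 and 83 with the filter at the 60th percentile, 52 and 27 after quantile normalization, 83 and 103 with array weights, 103 and 66 with a trended robust variance, 58 and 39 in an additive model, 19 and 26 without the 2 germ cell arrays and 2 and 3 without the 4 arrays. Leaving out 1 array gave 13 to 151 higher and 9 to 109 lower genes, and without each of 13 arrays a count moved by over 1.5 times. Genes without overlap of the diets (105 higher, 46 lower) numbered 51 higher after centring, 130 lower without the 2 arrays, 250 higher and 240 lower without the 4, and 114 to 183 higher and 50 to 121 lower without 1 array, where fewer arrays make separation easier. The genotype difference passed for 1 gene with the 60th percentile filter, 6 without the 4 arrays and 0 to 7 without 1 array. With the replicate block 18 genes were higher and 18 lower. Deviations of 21 same-numbered pairs of arrays correlated from -0.636 to 0.503 (median 0.0105), with 7 over 0.1. Whether same-numbered arrays shared a day or batch was stated in no source used here, and these correlations cannot exclude it. The Cd3e averaged log2 change, 0.03, turned: -0.00327 with array weights, -0.11 without the 4 arrays and -0.00827 to 0.0984 without 1 array, at -0.00179 without wildtype control replicate 2 and -0.00827 without replicate 3. Of the 129 genes past the threshold, 0 moved by over 1.5 times without the 2 arrays and 15 without the 4, among them Hsp90aa1 (-0.57), Hspb1 (-0.57), Klhl30 (-0.45), Odc1 (-0.47), Sparc (-0.17) and Lmcd1 (-0.42). Of the 30 other genes followed, which were not past it, 9 and 13 moved so, among them Klf15 (0.07), Cldn5 (0.05), Sln (0.06) and Kpna2 (-0.18) without the 4. The median of 16 of the 45 gene lists turned sign without some 1 array. The causes were not tested.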

Other observations

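Cytosolic ribosomal protein genes, which were chosen by symbol after their values were seen, had a positive median change. Of 55 tested, 3 passed the limma threshold as higher and 0 as lower, 49 had positive changes in both genotypes, 0 had negative changes in both, and 5 were higher without overlap of the diets. The median change was 0.15, at 0.20 in wildtype and 0.10 in knockout mice, against 0.03 over all genes. The 3 were Rpl10a at 0.26, Rpl36 at 0.28 and Rpl36a at 0.26, which passed in 15, 9 and 3 of 15 fits without 1 array. These genes have many processed copies in the genome, and probe sets may read more than 1 of them.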
